A study of Homo sapiens with 6 samples.

Results

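Long intergenic non-coding RNA genes that carry a numbered LINC symbol were examined in T24 cells with and without knockdown of UBC9. A gene entered the set if its symbol was LINC followed only by digits and if its RPKM, the read density corrected for gene length and library size, reached 0.5 in 3 or more of the 6 samples. This left 83 LINC genes of the 1539 LINC symbols and 58174 genes in the files. Of the other LINC symbols, 1022 were at 0 in every sample and 434 had reads without reaching the floor. The genes were thus selected on measured RPKM in both groups, so that they are expressed is a description and not a finding. The 3 genes nearest to the floor from above were LINC02086, LINC00174 and LINC01775, whose third-highest RPKM values were 0.512, 0.527 and 0.542. The nearest from below were LINC01004, LINC02057 and LINC01106, with third-highest RPKM values of 0.470, 0.455 and 0.437.

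T24 cells are an established line from a human bladder carcinoma. UBC9 is the enzyme that passes the small protein SUMO to its substrates. Cells infected with a lentivirus made from a pLKO.1 vector carried either an shRNA against UBC9 (shRNA-UBC9) or a scrambled control shRNA (shRNA-NC), and were selected with puromycin as stable populations. PolyA RNA of 3 samples per group was sequenced. The study's methods give 1 hairpin sequence and 1 control, so an effect of UBC9 loss and an effect of that hairpin on other transcripts cannot be told apart. The sources do not say whether the 3 samples of a group were separate cultures, so p-values measure only the spread between these samples, which may be technical.

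Long non-coding RNAs are transcripts that resemble mRNAs in being capped, often spliced and often polyadenylated, but that have no long reading frame. They are usually less abundant than mRNAs, are often restricted to few cell types, and many stay in the nucleus, where a short-lived transcript may be removed by the exosome, a ribonuclease complex. The LINC symbol is a placeholder for genes that lie between coding genes, so it groups genes by position and not by function, and some have been renamed once a function or a small protein was described.

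Low RPKM values rose in steps worth 1 read, which returned library totals of 28219032 to 36058872 mapped reads and whole reads for each of the 22896 genes above 0, within 0.01 reads. The smallest whole numbers that matched were taken, so a gene above 0 in 1 sample always passed. A factor shared by all samples of a gene would be lost. The totals rest on 2666 of 14549 genes with a usable exonic length, those whose estimates agreed. The epithelial markers KRT7, KRT8, KRT18 and KRT19 were abundant, whereas CDH1 was at or near 0 and KRT5 at 0, and the uroplakins UPK1A, UPK1B, UPK2 and UPK3A were near 0, so the urothelial label rests on GATA3 and PPARG here, both lower in shRNA-UBC9 (summed urothelial list 22.9 to 30.1 against 6.50 to 11.2 RPKM). Of the 5 tested epithelial markers 4 were lower in shRNA-UBC9 at the adjusted p, and the summed RPKM of the epithelial list ran from 938 to 1108 in shRNA-NC and from 426 to 563 in shRNA-UBC9. The mesenchymal markers VIM, FN1 and CDH2 were abundant and none passed the adjusted p. The summed RPKM of the 4 leukocyte markers stayed below 1, and that of the fibroblast markers was at most 1.33. The endothelial list summed to 2.64 to 3.26 in shRNA-NC and 0.316 to 1.07 in shRNA-UBC9, nearly all of it CDH5. The part of these marker changes in the LINC results was not tested.

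A gene is said to reach the floor in a group if at least 1 sample of that group did. Of the 75 LINC genes that reached the floor in both groups, 7 were called, with a |log2 fold change| over 1 and an adjusted p below 0.05. LINC00623, LINC01615, LINC02104, LINC01537 and LINC02081 rose, and LINC00511 and LINC00707 fell, which is 9.33% called beside 6.63% of all tested genes that met the same condition. LINC00623 and LINC02104 reached the floor in 1 shRNA-NC sample each and in all 3 shRNA-UBC9 samples. This share is thus not fully clear of the floor. Another 5 genes were called higher, LINC02015, LINC00973, LINC00659, LINC01828 and LINC01426, but these reached the floor only in shRNA-UBC9. A gene that enters in that way has to differ between the groups, so their values are given as a description and their p-values do not count as support. LINC00511 and LINC00707, both often described as raised in carcinomas, fell 2.37-fold and 2.44-fold in mean RPKM. In bulk RNA, a change in the number of cells that express a gene and a change in the RNA per cell cannot be told apart.

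Over the 12428 genes tested, 7.89% were called, 5.2% higher and 2.7% lower, beside 14.5%, 12.05% and 2.41% of the 83 LINC genes, of which 12 were called, 10 higher and 2 lower. The median log2 fold change of the LINC genes was 0.33, and that of all tested genes was 0.00. Both the count and the median include the 7 LINC genes that reached the floor only in shRNA-UBC9 samples, the 5 above with LINC00174 and LINC01679, and LINC01876, which reached it only in shRNA-NC samples. Over the 75 that reached it in both groups the median was 0.24, and over all tested genes that did so it was 0.00.

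**Figure D1:**
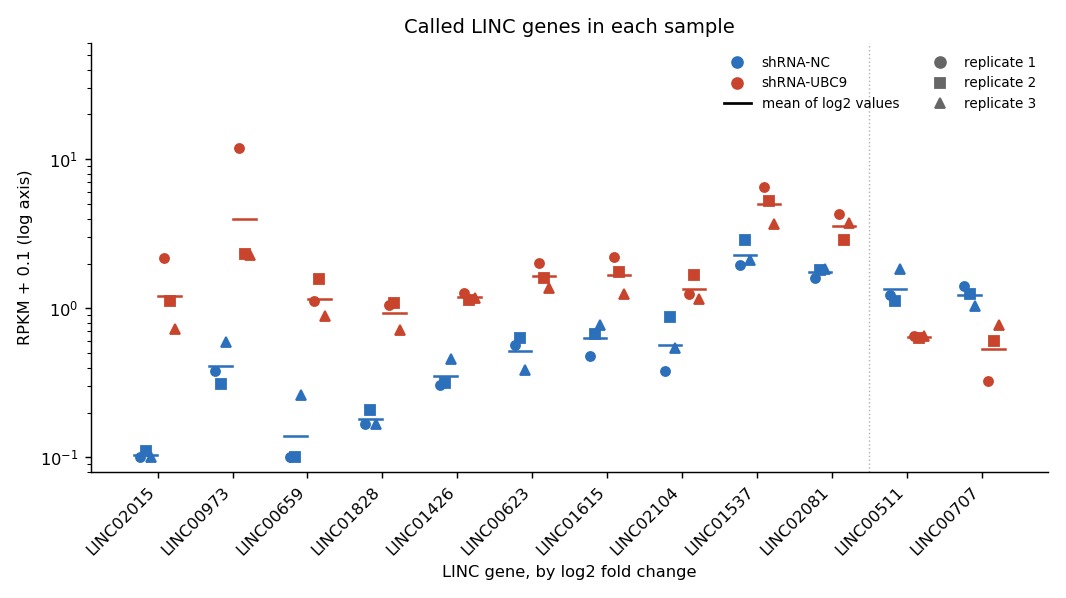
RPKM plus 0.1 on a log axis for the 12 called LINC genes in each sample, with shRNA-NC in blue, shRNA-UBC9 in red, a marker shape for each replicate number and a line at the mean of the log2 values. In each of the 12 genes the 3 samples of one group lie above the 3 of the other, which the floor fixed for LINC02015, LINC00973, LINC00659, LINC01828 and LINC01426, and shRNA-UBC9 replicate 1 stands apart for LINC00973 at 11.9 RPKM.

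The positions of the called genes are those of GENCODE release 44 (GRCh38), where all 12 are lncRNA genes outside coding exons. The 5 genes that reached the floor only in shRNA-UBC9 are described first. LINC02015, at chr3:177816865-177899224 on the plus strand, had no read in shRNA-NC replicates 1 and 3 and 1 read in replicate 2, against 226, 109 and 53 reads in shRNA-UBC9. Its RPKM in shRNA-UBC9 was 2.09, 1.03 and 0.625. The ratio of reads per library size was 383, with a counting interval (95%, Clopper-Pearson) of 68.4 to 15180 that covers counting error only. The log2 fold change was 3.56 ± 0.414 (SE), with an adjusted p of 0.000563. That fold change depends on the pseudocount of 0.1, since the shRNA-NC values lie at or next to 0, and it ran from 1.11 to 7.28 over the alternatives.

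LINC00973, a long non-coding RNA described in colorectal and renal cancer cells, lies at chr3:98981058-98983096 on the plus strand. It had an RPKM of 0.279, 0.210 and 0.492 in shRNA-NC and of 11.9, 2.21 and 2.17 in shRNA-UBC9. In shRNA-UBC9, replicate 1 was 5.37 times the next highest. The mean rose from 0.327 ± 0.147 to 5.42 ± 5.59 (SD, n = 3 each), by 3.27 ± 0.598 (SE) on the log2 scale, at an adjusted p of 0.00405. Leaving out shRNA-UBC9 replicate 1 gave a log2 fold change of 2.48 with an adjusted p of 0.000724. The floor still required the remaining samples to differ, so neither p-value counts as support.

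LINC00659, at chr20:62772980-62776996 on the minus strand, had no read in shRNA-NC replicates 1 and 2 and 3 reads in replicate 3. In shRNA-UBC9 it had 20, 28 and 12 reads, or 1.03, 1.47 and 0.787 RPKM. The ratio of reads per library size was 19.8, with a counting interval of 6.45 to 98.5. The log2 fold change was 3.07 ± 0.437 (SE), with an adjusted p of 0.0014. The interval is wide, as the gene had few reads.

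LINC01828, at chr2:67086446-67311439 on the plus strand, had an RPKM of 0.0672, 0.107 and 0.0684 in shRNA-NC and of 0.954, 0.990 and 0.618 in shRNA-UBC9. These values rest on 52 reads in shRNA-NC and 562 in shRNA-UBC9. The means were 0.0809 ± 0.0226 and 0.854 ± 0.205 (SD, n = 3 each), and the difference that its entry required was 2.38 ± 0.281 (SE) on the log2 scale at an adjusted p of 0.000597. LINC01426 lies at chr21:34745756-34784886 on the plus strand beside the transcription factor gene RUNX1. Its mean RPKM was 4.19-fold higher in shRNA-UBC9, from 0.208, 0.215 and 0.358 to 1.16, 1.03 and 1.08. Its log2 fold change was 1.75, with an adjusted p of 0.000862. Its 3 shRNA-UBC9 values lay close together, at 1.09 ± 0.0666 (SD, n = 3).

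The first of the called genes that reached the floor in both groups, LINC00623, lies at chr1:120913184-121009291 on the plus strand. Its RPKM was 0.468, 0.529 and 0.285 in shRNA-NC and 1.92, 1.49 and 1.28 in shRNA-UBC9, a 3.66-fold rise of the mean. LINC00623 had a log2 fold change of 1.67 and an adjusted p of 0.00141. Its longest transcript in GENCODE release 44 is shared over 100% of its length with genes at other places, LINC00869 and LINC01138 among them, at 98% identity or more. How reads with several mappings were counted is not stated, so the gene that rose cannot be told from its copies. None of the other 11 called genes shared over 10% of its longest transcript with another locus.

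LINC01615, at chr6:169157162-169163007 on the minus strand, had an RPKM of 0.381, 0.575 and 0.673 in shRNA-NC and of 2.10, 1.64 and 1.14 in shRNA-UBC9, a 3.00-fold rise with a log2 fold change of 1.42 and an adjusted p of 0.00411. LINC02104, at chr5:39520398-39524726 on the plus strand, rested on 30 reads in shRNA-NC and 76 in shRNA-UBC9, with an RPKM of 0.280, 0.771 and 0.444 against 1.16, 1.56 and 1.06. Its log2 fold change was 1.25 with an adjusted p of 0.0142, and the call was lost without shRNA-NC replicate 1, at 0.97, and without shRNA-UBC9 replicate 2, at an adjusted p of 0.0534.

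LINC01537, at chr11:72570660-72573229 on the plus strand, was the best covered of these that rose, with 537 reads in shRNA-NC and 1257 in shRNA-UBC9. Its RPKM was 1.85, 2.76 and 2.03 against 6.41, 5.12 and 3.60, a 2.28-fold rise with a log2 fold change of 1.14 and an adjusted p of 0.00521. Leaving out shRNA-UBC9 replicate 1 gave 0.95, below the fold limit, at an adjusted p of 0.01005. LINC02081, now named SCAT1 and at chr17:78605233-78632155 on the minus strand, had an RPKM of 1.503, 1.70 and 1.74 against 4.17, 2.79 and 3.65, a 2.14-fold rise with a log2 fold change of 1.04 and an adjusted p of 0.0017. It lay at the fold limit and fell below it without shRNA-NC replicate 1, at 0.98, without shRNA-UBC9 replicate 1, at 0.92, and under median scaling or quantile normalization, with adjusted p values of 0.00944 or less throughout.

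LINC00511, at chr17:72290091-72640472 on the minus strand, had an RPKM of 1.12, 1.02 and 1.74 in shRNA-NC and of 0.550, 0.530 and 0.555 in shRNA-UBC9. The 3 shRNA-UBC9 values lay close together and below each shRNA-NC value. The log2 fold change was -1.07 ± 0.213 (SE), with an adjusted p of 0.00584 and 1098 reads in shRNA-NC against 467 in shRNA-UBC9. Without shRNA-NC replicate 3, the highest sample, it was -0.86 with an adjusted p of 0.0208. LINC00707, at chr10:6779549-6842906 on the plus strand, had an RPKM of 1.32, 1.16 and 0.943 against 0.226, 0.508 and 0.669, with a log2 fold change of -1.20 and an adjusted p of 0.019. In GENCODE 14.0% of its exonic bases also lie in exons of other genes on the same strand. Its call was lost without shRNA-NC replicate 1, at an adjusted p of 0.0703, without shRNA-NC replicate 2, at 0.0519, and without shRNA-UBC9 replicate 1, at a log2 fold change of -0.85.

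The windows around the start sites of the called genes are shown because they are the sequence nearest to where a change of transcription would act. RefSeq gives a start window, from 250 bases before to 50 bases after the start, for 63 of the 83 LINC genes and 9 of the 12 called ones. The windows below, on GRCh38.p14 and written on the strand of the gene, belong to LINC02015 and to the 4 other called genes with a match whose RefSeq start lay within 140 bases of a GENCODE start. Capitals mark matches to the TATA box (TATAAA), to the AP-1 site (TGANTCA) or to the STAT-binding GAS element (TTCNNNGAA), and LINC02015 had no match. No match overlapped another in these windows.
LINC02015, chr3:177816615-177816914 (+): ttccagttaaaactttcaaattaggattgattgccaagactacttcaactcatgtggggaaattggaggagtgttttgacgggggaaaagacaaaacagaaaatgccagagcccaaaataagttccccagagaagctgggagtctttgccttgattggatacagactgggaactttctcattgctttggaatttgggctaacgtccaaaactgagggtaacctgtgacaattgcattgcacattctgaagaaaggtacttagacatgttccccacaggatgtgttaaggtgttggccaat
LINC00659, chr20:62776807-62777106 (-): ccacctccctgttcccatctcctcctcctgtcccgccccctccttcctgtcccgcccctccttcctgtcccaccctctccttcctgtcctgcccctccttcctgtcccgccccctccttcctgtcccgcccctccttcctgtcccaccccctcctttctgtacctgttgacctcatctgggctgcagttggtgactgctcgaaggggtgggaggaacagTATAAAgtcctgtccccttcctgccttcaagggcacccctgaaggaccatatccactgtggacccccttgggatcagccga
LINC01615, chr6:169162940-169163239 (-): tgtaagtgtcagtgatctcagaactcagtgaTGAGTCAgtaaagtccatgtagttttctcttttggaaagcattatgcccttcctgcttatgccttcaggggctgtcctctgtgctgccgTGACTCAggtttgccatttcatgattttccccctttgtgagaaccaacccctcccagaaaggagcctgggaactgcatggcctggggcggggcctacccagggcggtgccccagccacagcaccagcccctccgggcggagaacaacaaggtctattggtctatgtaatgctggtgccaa
LINC01537, chr11:72570406-72570705 (+): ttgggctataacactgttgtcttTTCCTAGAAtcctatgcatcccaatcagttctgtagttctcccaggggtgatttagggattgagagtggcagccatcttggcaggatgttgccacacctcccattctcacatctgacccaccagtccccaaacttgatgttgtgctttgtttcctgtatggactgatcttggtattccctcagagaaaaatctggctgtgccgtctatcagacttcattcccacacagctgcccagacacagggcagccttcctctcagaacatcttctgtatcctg
LINC02104, chr5:39520181-39520480 (+): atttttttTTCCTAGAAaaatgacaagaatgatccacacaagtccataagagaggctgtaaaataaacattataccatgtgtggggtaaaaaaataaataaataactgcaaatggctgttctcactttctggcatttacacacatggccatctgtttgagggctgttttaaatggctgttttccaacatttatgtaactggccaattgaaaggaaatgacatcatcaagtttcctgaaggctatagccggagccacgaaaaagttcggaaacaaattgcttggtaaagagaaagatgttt
The TATA box of LINC00659 began at position -31 from the RefSeq start, on the strand of the gene. The AP-1 matches of LINC01615 began at positions -219 and -130. The GAS matches began at position -242 in LINC02104 and at position -227 in LINC01537. LINC00973 also had an AP-1 match, but its RefSeq start lay 66492 bases from the GENCODE start, so its window is not shown.

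Both strands of each window were searched, also for the NF-kappaB site and the interferon-stimulated response element (ISRE). TATAAA was found in 12.7% of the 63 LINC windows and in 11.6% of all 34796 RefSeq windows. TGANTCA was found in 12.7% and 7.73%, TTCNNNGAA in 11.1% and 7.67%, and the NF-kappaB site in 9.52% and 11.3%. The NF-kappaB site was in the window of 6 LINC genes, none of them called, and the ISRE was in none, beside 3.57% of all windows. A match is a string of letters and not a bound site.

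Beyond the called genes, 21 LINC genes were higher and 5 lower at the adjusted p without reaching the fold limit. At an adjusted p below 0.05 with no limit on the fold change, 31 LINC genes, called ones included, were higher in shRNA-UBC9 and 7 were lower, and 45 did not pass. This is 37.3% and 8.43% of the LINC genes, beside 18.8% and 18.0% of all tested genes. Among those that reached the floor in both groups, 25 of 75 LINC genes were higher and 7 lower, or 33.3% and 9.33%, beside 17.9% and 17.8% of all tested genes. The 3 shRNA-UBC9 samples were all above the 3 shRNA-NC samples in 41 LINC genes and all below them in 11, or 49.4% and 13.3%, beside 25.7% and 25.4% of all tested genes. The floor itself fixed this in 7 of the 41 and in 1 of the 11. Among the genes that reached it in both groups, 34 and 10 of the 75 did not overlap, or 45.3% and 13.3%, beside 24.8% and 25.2% of all tested genes. In 31 LINC genes the groups overlapped.

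**Figure D2:**
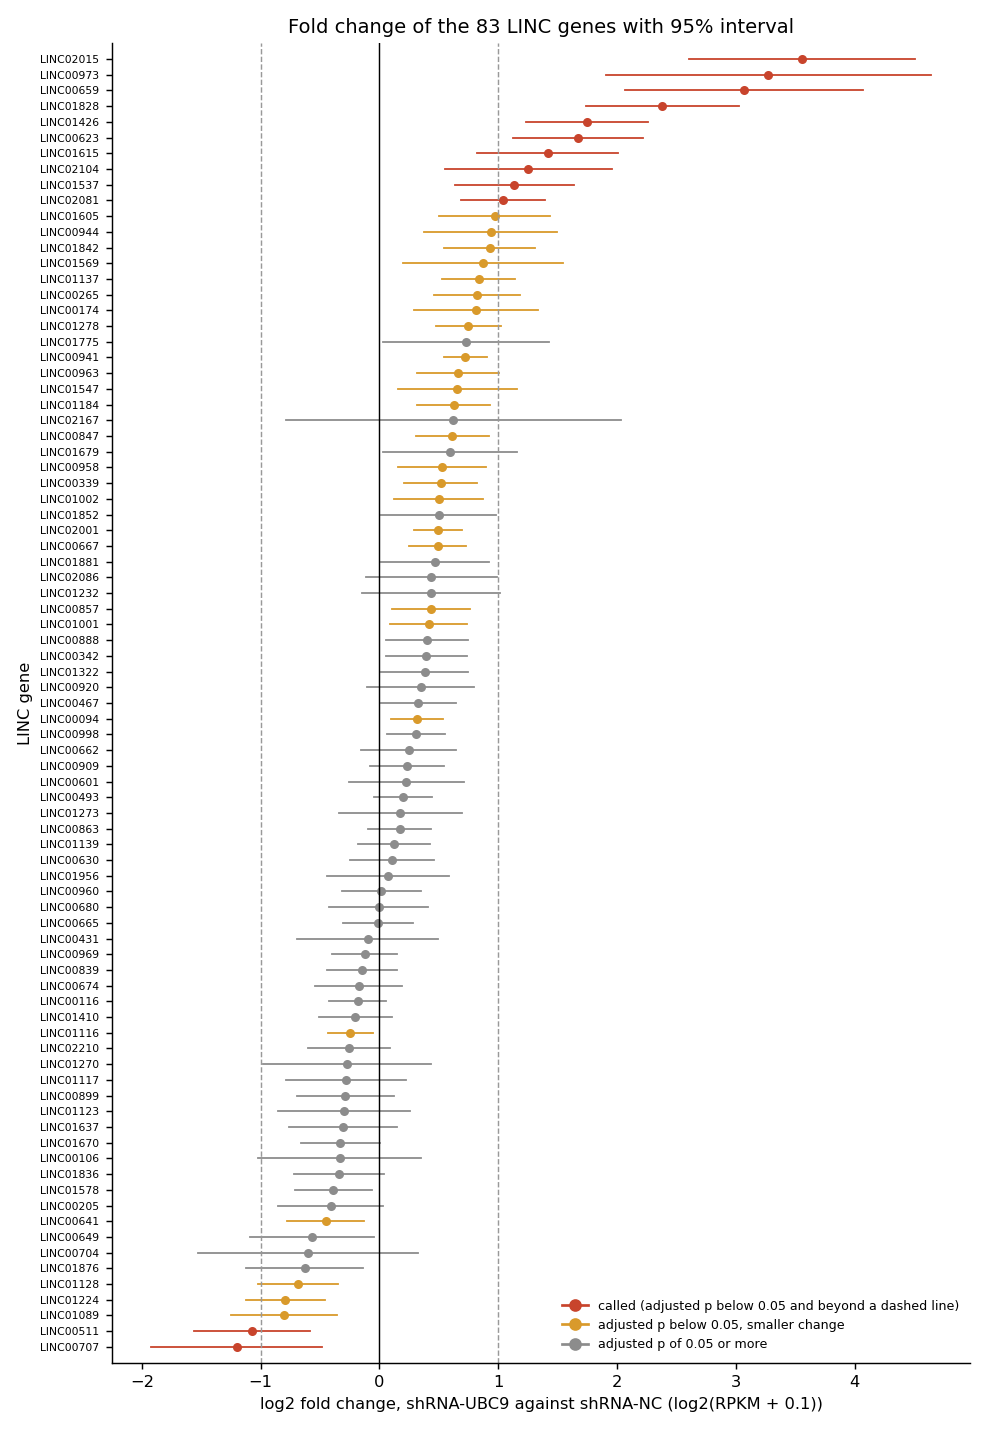
Log2 fold change of shRNA-UBC9 against shRNA-NC for the 83 LINC genes with the 95% interval from limma, red where called, orange where only the adjusted p was below 0.05 and grey otherwise, with dashed lines at the fold limit of 1. The values run from 3.56 for LINC02015 to -1.20 for LINC00707, and 54 of the 83, with the 7 that reached the floor only in shRNA-UBC9, lie above 0.

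The 5 genes next below the fold limit were LINC01605, LINC00944, LINC01842, LINC01569 and LINC01137. LINC01605, described in bladder cancer, had an RPKM of 1.76, 1.06 and 1.69 against 2.70, 2.70 and 3.61, with a log2 fold change of 0.97 and an adjusted p of 0.00751. LINC01137, now named LITATS1, had an RPKM of 1.56, 1.18 and 1.46 against 2.54, 2.71 and 2.44, with a log2 fold change of 0.83 and an adjusted p of 0.00227. The groups did not overlap in any of these 5 genes. The smallest adjusted p of the set belonged to LINC00941, studied in gastrointestinal cancers, whose RPKM was 5.18, 4.99 and 5.10 in shRNA-NC and 8.56, 8.53 and 8.29 in shRNA-UBC9. Its replicates differed by less than 0.15 (SD), its log2 fold change was 0.72 and its adjusted p was 0.000445. In GENCODE release 44, 100% of its exonic bases also lie in exons of another gene on the same strand, so its reads cannot be assigned to it alone in that annotation.

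The 5 genes that were lower at the adjusted p without reaching the fold limit were LINC01089, LINC01224, LINC01128, LINC00641 and LINC01116. LINC01224 had an RPKM of 5.46, 5.55 and 5.12 in shRNA-NC and of 2.52, 3.00 and 3.81 in shRNA-UBC9, with a log2 fold change of -0.79 and an adjusted p of 0.00413. LINC01089 had an RPKM of 1.96, 1.39 and 1.83 against 1.19, 0.776 and 0.883, with a log2 fold change of -0.80 and an adjusted p of 0.0139. In all 5 genes each shRNA-UBC9 sample was below each shRNA-NC sample.

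The LINC genes were rare transcripts in T24 cells. Their median mean RPKM was 1.36, beside 6.16 over all tested genes, 76 of the 83 were below the latter, and 8 had a mean RPKM over 5. The 10 most abundant genes held 41.5% to 47.1% of the summed LINC RPKM in a sample. None of these 10 was called by limma or by voom, limma's method for read counts, while 7 had an unadjusted p below 0.05. The sum itself was 178 to 194 RPKM in shRNA-NC and 212 to 251 in shRNA-UBC9, so the ranges did not overlap. It includes the 7 genes that reached the floor only in shRNA-UBC9 and so had to add to that group. In shRNA-UBC9 replicate 1 it also holds LINC00973 at 11.9 and LINC02167 at 11.7 RPKM. The 10 most abundant genes, LINC02167 among them, all reached the floor in both groups. They summed to 73.9 to 89.4 RPKM in shRNA-NC and 96.0 to 109 in shRNA-UBC9.

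**Figure D3:**
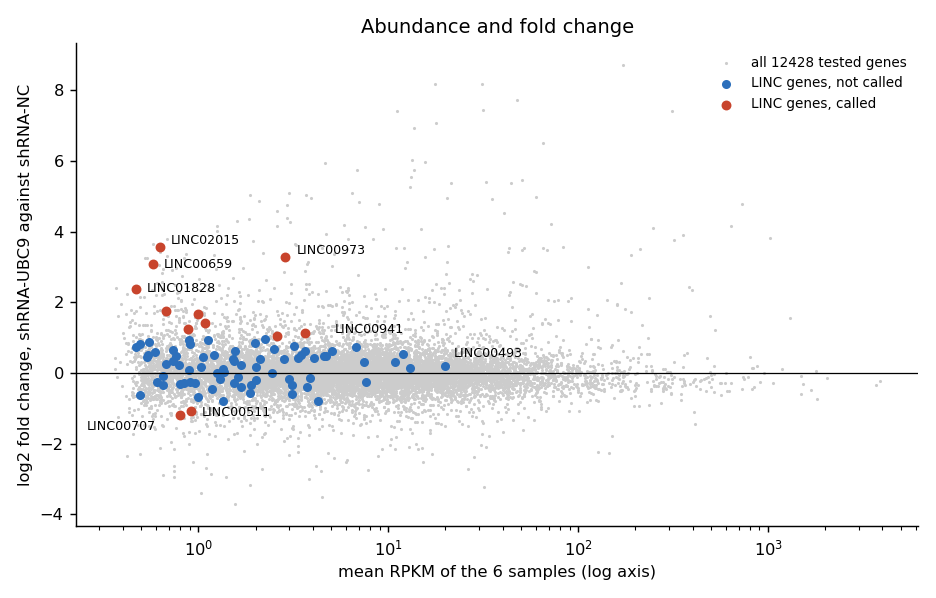
Mean RPKM of the 6 samples on a log axis against the log2 fold change, for all 12428 tested genes in grey and the 83 LINC genes in blue, or in red where called. None of the 10 most abundant LINC genes is red, and LINC00493, at a mean of 19.9 RPKM, is the most abundant and has a log2 fold change of 0.20.

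LINC00493 was first in abundance, with an RPKM of 16.2, 19.1 and 20.3 in shRNA-NC and of 22.4, 21.6 and 19.6 in shRNA-UBC9. The groups overlapped, and the log2 fold change of 0.20 had a 95% interval of -0.05 to 0.44 and an adjusted p of 0.186. LINC01139 was next, with means of 12.4 ± 2.01 and 13.5 ± 1.43 (SD, n = 3 each), and its groups overlapped as well. LINC00958, also known as bladder cancer-associated transcript BLACAT2, had an RPKM of 8.19, 12.9 and 8.70 against 13.7, 14.7 and 13.8, with a log2 fold change of 0.52 and an adjusted p of 0.0354. LINC00958 was thus higher in each shRNA-UBC9 sample, while a difference in LINC00493 or LINC01139 was not detectable beside the spread of the replicates.

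Of the 83 LINC genes 13 have another symbol in RefSeq today, and 4 of those are now listed as protein-coding: LINC00493 is SMIM26 and LINC00998 is SMIM30, both small membrane proteins, LINC00116 is MTLN, a mitochondrial microprotein, and LINC00094 is BRD3OS. The list drawn up for LINC symbols with a described small protein held 9 symbols, of which 5 were tested. It includes LINC01547, which RefSeq and GENCODE list as a lncRNA gene. None of the 5 was called by limma or voom, while limma called 7.89% of all tested genes. Of the 5, 3 had an unadjusted p below 0.05 and 2 were higher at the adjusted p, beside 18.8% of all tested genes. Their median log2 fold change was 0.31. LINC00094, 21.5% of whose exonic bases in GENCODE lie opposite exons of BRD3, had an RPKM of 6.67, 6.74 and 6.48 against 9.13, 7.58 and 8.24, with a log2 fold change of 0.32 and an adjusted p of 0.0305, and LINC01547 had a log2 fold change of 0.66 and an adjusted p of 0.046. LINC00998 just missed the threshold, with a log2 fold change of 0.31 and an adjusted p of 0.0506. LINC00116 had a log2 fold change of -0.18 and an adjusted p of 0.208.

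A list of 30 LINC symbols often described in cancers held 12 tested genes. Of these 1 was called higher, LINC00973, which reached the floor only in shRNA-UBC9, and 2 lower, LINC00511 and LINC00707. This is 8.33% and 16.7% of the 12, beside 5.2% and 2.7% of all tested genes. At the adjusted p alone 6 of the 12 were higher and 3 lower, beside 18.8% and 18.0% of all tested genes. The median log2 fold change was 0.38. LINC00941, LINC01605, LINC00339, LINC00958 and LINC00857 were among the higher genes without reaching the fold limit. LINC00857, described in lung and bladder cancer, had means of 3.43 ± 0.533 and 4.66 ± 0.607 (SD, n = 3 each) and an adjusted p of 0.0437. LINC01116 was lower, with means of 8.30 ± 0.234 and 6.98 ± 0.326 (SD, n = 3 each) and an adjusted p of 0.0477. LINC00665 was level, at 2.45 ± 0.0924 and 2.44 ± 0.388 (SD, n = 3 each), although 82.2% of its longest transcript is shared with LINC01535. LINC01133, LINC00346, LINC00261 and LINC00355 were at 0 in every sample.

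In 4 LINC genes 1 shRNA-UBC9 sample was at least 2 times the next highest of its group, and in all 4 it was replicate 1. Besides LINC02015 and LINC00973, these were LINC02167 and LINC00704. LINC00704, now named MANCR for its link to mitosis, had an RPKM of 3.68, 2.98 and 4.002 in shRNA-NC and of 4.93, 1.30 and 1.85 in shRNA-UBC9. Its log2 fold change was -0.60 with an adjusted p of 0.276, and without shRNA-UBC9 replicate 1 it was -1.14 with an adjusted p of 0.00293. LINC02167 had an RPKM of 1.99, 7.97 and 2.09 in shRNA-NC and of 11.7, 3.32 and 3.24 in shRNA-UBC9, so that 1 sample of each group stood far above its other two. Its log2 fold change was 0.62 with an adjusted p of 0.458, and without shRNA-NC replicate 2 it was 1.26 with an adjusted p of 0.106. Without shRNA-NC replicate 1, LINC01775 was called, with a log2 fold change of 1.04 and an adjusted p of 0.0247. shRNA-UBC9 replicate 1 also had the most mapped reads, 36058872, and the most LINC symbols above 0, 380, beside 288 to 350 in the other samples. The part of depth in these values was not tested.

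Many long non-coding RNAs lie close to a coding gene and can share its control regions. The nearest tested coding gene was found for each of the 83 LINC genes, at a median gap of 25310 bases, and 81 distinct coding genes resulted. Of the 83 pairs 8 had a called coding gene, 9.64% beside the 7.89% of all tested genes. For the called LINC genes there were 2 such pairs. LINC01537 lies 2912 bases from PDE2A, a phosphodiesterase that breaks down cyclic nucleotides, which had means of 0.553 ± 0.195 and 1.24 ± 0.217 RPKM (SD, n = 3 each) and rose by 1.08 on the log2 scale at an adjusted p of 0.0135. LINC00659 lies 10209 bases from NTSR1, the neurotensin receptor, which had means of 0.125 ± 0.0464 and 1.02 ± 0.0773 RPKM (SD, n = 3 each) and rose by 2.34 on the log2 scale at an adjusted p of 0.00037. NTSR1, like LINC00659, reached the floor only in shRNA-UBC9, so both had to differ. That pair is given as a description, and its p-values do not count as support. In both pairs the genes are on opposite strands and do not overlap.

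**Figure D4:**
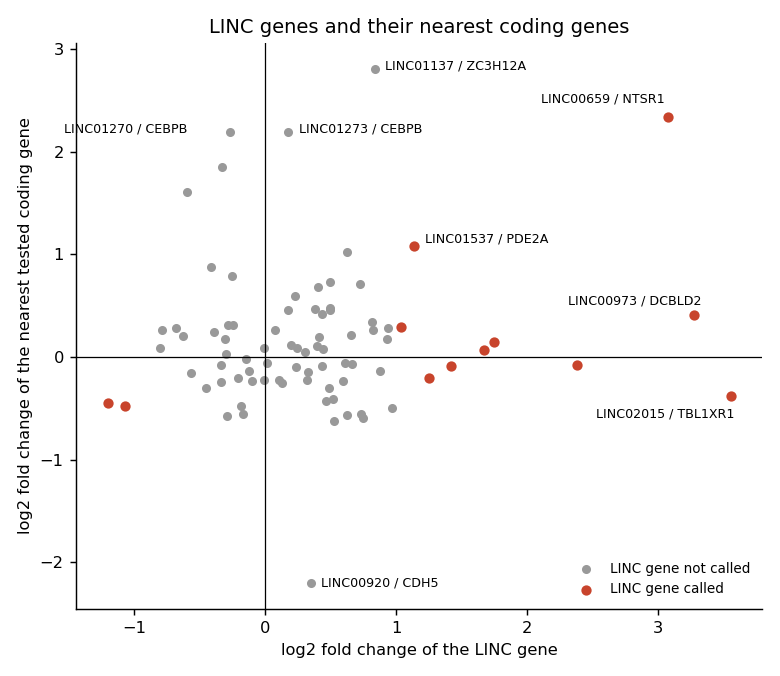
Log2 fold change of each LINC gene against that of its nearest tested coding gene, red where the LINC gene was called. LINC00659 with NTSR1 and LINC01537 with PDE2A lie in the upper right, while LINC02015 and LINC01828 have neighbours with log2 fold changes of -0.38 and -0.07. The floor fixed the rise of LINC00659 and NTSR1, which reached it only in shRNA-UBC9.

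The other 10 called LINC genes had a nearest coding gene that was not called. RUNX1, 2915 bases from LINC01426, had means of 2.44 ± 0.285 and 2.70 ± 0.229 RPKM (SD, n = 3 each) and an adjusted p of 0.392. DCBLD2, 79363 bases from LINC00973, was higher, with a log2 fold change of 0.41 and an adjusted p of 0.0246. TBL1XR1, 588865 bases from LINC02015, was lower, with a log2 fold change of -0.38 and an adjusted p of 0.0292. SFMBT2 and SLC39A11, nearest to the LINC genes that fell, had log2 fold changes of -0.44 and -0.48 with adjusted p values of 0.0696 and 0.0504. DAB2, CYTH1, ETAA1, NBPF26 and THBS2 had adjusted p values from 0.121 to 0.818.

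The called coding genes beside LINC genes that were not called did not all share the direction of the LINC gene. ZC3H12A, a ribonuclease that degrades inflammatory mRNAs, lies 137 bases from LINC01137 and went up from 5.37 ± 2.47 to 35.1 ± 3.16 RPKM (SD, n = 3 each), by 2.81 on the log2 scale at an adjusted p of 0.000522. LINC01137 was higher too, with a log2 fold change of 0.83 and an adjusted p of 0.00227. CEBPB, a transcription factor of acute-phase and inflammatory genes, was nearest to LINC01270 and LINC01273 and had a log2 fold change of 2.19, while these had log2 fold changes of -0.27 and 0.17 with adjusted p values of 0.519 and 0.572. CDH5, 3732 bases from LINC00920, fell with a log2 fold change of -2.20, and LINC00920 had a log2 fold change of 0.35 with an adjusted p of 0.203. The 2 remaining pairs, LINC02167 with ZNF267 and LINC01670 with RBM11, have gaps of 3825911 and 8713588 bases. RBM11 also reached the floor only in shRNA-UBC9. Of the LINC genes 13 overlapped the body of their nearest coding gene, and these pairs did not all move alike. LINC00941 and CAPRIN2 had log2 fold changes of 0.72 and 0.71. LINC01278 and SPIN4 had 0.75 and -0.59, and LINC00667 and ZBTB14 had 0.49 and -0.30.

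Other classes of long non-coding RNA were taken by the form of their symbols. For comparison, 7.89% of all tested genes were called, and 18.8% were higher and 18.0% lower at the adjusted p. Of 165 tested antisense genes 6 were called higher and 7 lower, with a median log2 fold change of 0.00, and BMPR1B-AS1, ZFHX4-AS1, HAS2-AS1, TMEM108-AS1, LMO7-AS1 and SERTAD4-AS1 changed the most. Of 17 microRNA host genes 1 was called, MIR3142HG, and the 1 tested intronic gene was not. Of 20 genes with an SNHG symbol, which host small nucleolar RNAs, none was called by limma or voom, while 9 had an unadjusted p below 0.05 and 7 were lower and none higher at the adjusted p, with a median of -0.25. Of the 31 tested genes for nuclear RNA surveillance and decay, none was called by limma or voom and 8 had an unadjusted p below 0.05. ZCCHC7 and DIS3 were higher at the adjusted p, with log2 fold changes of 0.60 and 0.42, and EXOSC8, WDR82 and PABPN1 lower, with -0.45, -0.28 and -0.27. The same libraries held 11 called genes of 12 interferon-stimulated genes and 10 of 10 NF-kappaB target genes, all higher, with median log2 fold changes of 3.48 and 2.99. IFI44L, RSAD2, MX1, IFI6, OAS1 and OAS2 led the former, and CCL20, IL6, CXCL8, CXCL1, TNFAIP3 and ICAM1 the latter. The part of any of these changes in the LINC results was not tested.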

How the data were processed

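RNA-seq of 3 shRNA-NC and 3 shRNA-UBC9 samples of T24 cells was used, grouped by the sample labels. After adaptor trimming, the authors used the CLC Biomedical Genomics Workbench at default settings to map reads to GRCh38 (hg38 per the labels), and deposited RPKM for 58174 genes. Annotation release, strand setting and treatment of reads with several mappings are not given in the sources used here. RPKM corrects for length and depth but not for RNA composition.

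Values were taken to log2(RPKM + 0.1), on which all log2 fold changes stand, so that those of genes with low values come out too small. Changes given as n-fold are ratios of the mean RPKM of the groups, without the pseudocount, and are not what limma tested. The 12428 genes at or above the floor were fitted together in limma 3.58.1 (R 4.3.3; lmFit, eBayes with an intensity trend) with Benjamini-Hochberg adjustment, after the study's thresholds. Every adjusted p comes from limma. An exact permutation test of 3 against 3 cannot go below 0.1, and gave 0.1 (two-sided) for each called LINC gene. No gene had the same RPKM above 0 in any pair of samples.

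Reads recovered from RPKM steps gave 28219032 to 36058872 per library. Intervals on reads cover counting error only. Positions came from GENCODE release 44, symbols and start windows from RefSeq (GRCh38.p14), and shared sequence from BLAST 2.17.0 (98% identity over 100 bases or more). Only 16 of the 83 genes have the exonic length in release 44 that the deposited values imply, so the authors' gene models differ. Python 3.11.15, pandas 2.3.3, scipy 1.17.1 and matplotlib 3.10.9 were used, and scripts were tested on simulated data.

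The LINC genes and all lists were chosen with earlier results of these data known. The level of the targeted gene is not reported here. Named genes are every called LINC gene, the 10 most abundant, members of the small-protein and cancer lists, the 3 on each side of the floor, the nearest coding genes of called LINC genes, and up to 6 called genes of each other list. Genes next to the fold limit, genes lower at the adjusted p, called neighbours and genes with 1 sample apart were named after their values were seen. Cell type marker, RNA decay, interferon, NF-kappaB and symbol-class lists were counted beside them. Alternatives were other pseudocounts, floors and scalings, no intensity trend, a replicate block, other call rules, and leaving out each replicate. 3 were added after seeing the data: voom on recovered reads, and leaving out genes with shared sequence or at the floor in 1 group only.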

Additional observations from a re-analysis of the deposited data

How the results depend on the processing

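Between 12 and 13 LINC genes were called when 1 replicate was left out, and the median log2 fold change ran from 0.26 to 0.38, lowest without shRNA-UBC9 replicate 1. With a pseudocount of 1, 2 LINC genes were called with a median of 0.20, beside 552 of all genes. These were LINC02015 and LINC00973, which reached the floor only in shRNA-UBC9. All 7 called LINC genes at the floor in both groups lost their call there. LINC02104, LINC02081, LINC00511 and LINC00707 also lost it with a pseudocount of 0.5, and LINC00707 with no floor. With no floor, 29 of 517 LINC genes were called with a median of 0.062. At 0.25 RPKM in 3 or more samples there were 21, with a median of 0.23, and at 1 RPKM in every sample 2, beside 552 of all genes. For no floor, for 0.25 RPKM and for each replicate left out, the share of all genes called is not given here. Those counts are thus a description only. Quantile normalization gave a median of 0.26 and 573 genes higher with 408 lower, in place of 646 and 335. With no limit on the fold change, 38 LINC genes and 4576 genes passed. Of LINC genes at the floor in both groups 7 were called. The cause of these shifts was not tested, apart from the fewer or more genes tested. voom on recovered reads called 17 LINC genes, all 12 among them, and 1055 genes in all. No called LINC gene changed direction, and none of the 10 most abundant changed its call in 190 combinations of gene and setting.

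The replicate numbers did not pair the samples: correlations of same-numbered deviations were -0.37, 0.07 and -0.17. With the replicate block 12 LINC genes were called, and 974 genes in all. Depth limits the values of 35 LINC genes with under 100 reads a sample on average.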

Other observations

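Of the 434 LINC symbols with reads but below the floor, the fit without a floor called 18, 15 higher and 3 lower in shRNA-UBC9. The share of all genes called in that fit is not given here, so these counts are a description only. Some of the 18 rest on few reads, such as LINC01764 with 0 in shRNA-NC against 8 in shRNA-UBC9, and LINC01444 with 1 against 17. LINC01285 had 1, 1 and 0 reads in shRNA-NC and 160, 65 and 25 in shRNA-UBC9, with replicate 1 again the highest. LINC00161 had 0, 2 and 0 reads against 11, 16 and 13, and LINC00460, described in several carcinomas, had 1, 4 and 2 against 25, 9 and 8. LINC01085 was lower, with 23, 42 and 58 reads against 8, 2 and 4, and LINC01693 had 13, 6 and 17 against 1, 2 and 1. These genes were named after their values were seen. The tested LINC symbols with a suffix were LINC-PINT and LINC01347_2, with log2 fold changes of 0.02 and 0.65 and adjusted p values of 0.936 and 0.0205.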
